A study of Mus musculus with 29 samples.

Results

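The potassium channel genes of the mouse carry symbols that begin with Kcn, and they encode the pore-forming subunits of these channels together with several families of auxiliary subunits. They were taken as the protein-coding genes of the 4 h count table whose symbol is Kcn followed by a lower-case letter and whose count reached 10 in at least 3 libraries. Of 54532 genes in that table, 94 are protein-coding Kcn genes and 83 met the count rule. Just outside it were Kcna10 and Kcne3, which reached 10 counts in 2 libraries each with a highest count of 11. The other 9, Kcna7, Kcne1, Kcnj1, Kcnj13, Kcnj15, Kcnk15, Kcnk18, Kcnmb3 and Kcnv2, never exceeded 8 counts in a 4 h library. The 4 genes that gave the group its label, Kcna1, Kcnd2, Kcnf1 and Kcns2, were all among the 83.

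Spinal cord was taken from mice after aortic cross clamping (ACC), an operation in which a clamp on the aorta stops the blood flow to the lower cord, and its poly-A selected RNA was sequenced. Clamped wild-type (WT) mice, 3 in number, each gave a thoracolumbar and a cervical piece of cord 1 h after ACC, the cervical piece serving as the control that the clamp spares. The 4 h samples were all thoracolumbar, from clamped (ACC) and Sham mice on a C57BL6 background, in 3 genotypes. These were WT (3 ACC, 3 Sham), mice without the microRNA miR-128 in any cell (miR128KO, 3 ACC, 4 Sham) and a motor neuron knock-in of the microRNA miR-155 (miR155KI, with 5 ACC and 4 Sham mice), so that 11 ACC and 11 Sham mice were compared. The gene driver of the knock-in and the ages of the mice are not given in the sources used here, and both sexes were used. No miR128KO ACC library 2 is among the 29 samples. The miR128KO ACC library 1 was left out, as in the study, where it was set aside because that cord had not changed against Sham. The exclusion therefore rests on an outcome.

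Potassium channels let potassium leave or enter a cell along its electrochemical gradient and thereby hold the resting potential of neurons and glia and end each action potential. Voltage-gated (Kv) channels open on depolarization, calcium- and sodium-activated channels open when those ions rise inside the cell, inward rectifiers (Kir) pass current best near rest, and K2P channels conduct a background leak. In the spinal cord, Kv1 channels cluster beside the nodes of myelinated axons, Kv4 channels with their KChIP subunits carry the fast inactivating A-type current of neuronal dendrites, and the glial Kir channel encoded by Kcnj10 takes up potassium released by active neurons.

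Total counts per library ran from 15596512 to 33056693 over the 29 libraries, and the 83 genes together took between 0.448% and 0.590% of the counts of a library. Mitochondrially encoded genes took 4.62% to 5.52% in the 11 ACC libraries and 4.44% to 6.42% in the 11 Sham libraries at 4 h. Levels of single genes are given as CPM, read counts relative to the library size as scaled by TMM, and levels of different genes are compared only as CPM per kilobase of the deposited gene length (RPKM).

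The highest level per length in Sham cord belonged to Kcnj10, the astrocytic and oligodendroglial inward rectifier, at 146 RPKM (SD 11.9, n = 11). Kcnab2, the cytosolic beta subunit of Kv1 channels, was at 88.1 RPKM (SD 8.2). The K2P channel gene Kcnk1 stood at 53.9 RPKM (SD 3.22), and the axonal Kv1 pair Kcna1 and Kcna2 at 33.7 RPKM (SD 6.29) and 33.4 RPKM (SD 4.40), which did not differ beyond their spread. Summed over all 83 genes, the level per length had a median of 889 RPKM in Sham libraries and 884 RPKM in ACC libraries. Of the 83 genes, 64 had a mean Sham level of at least 1 RPKM, and the median coefficient of variation of their levels across Sham mice was 11.2%. For the 19 lower genes it was 33.7%.

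**Figure D1:**
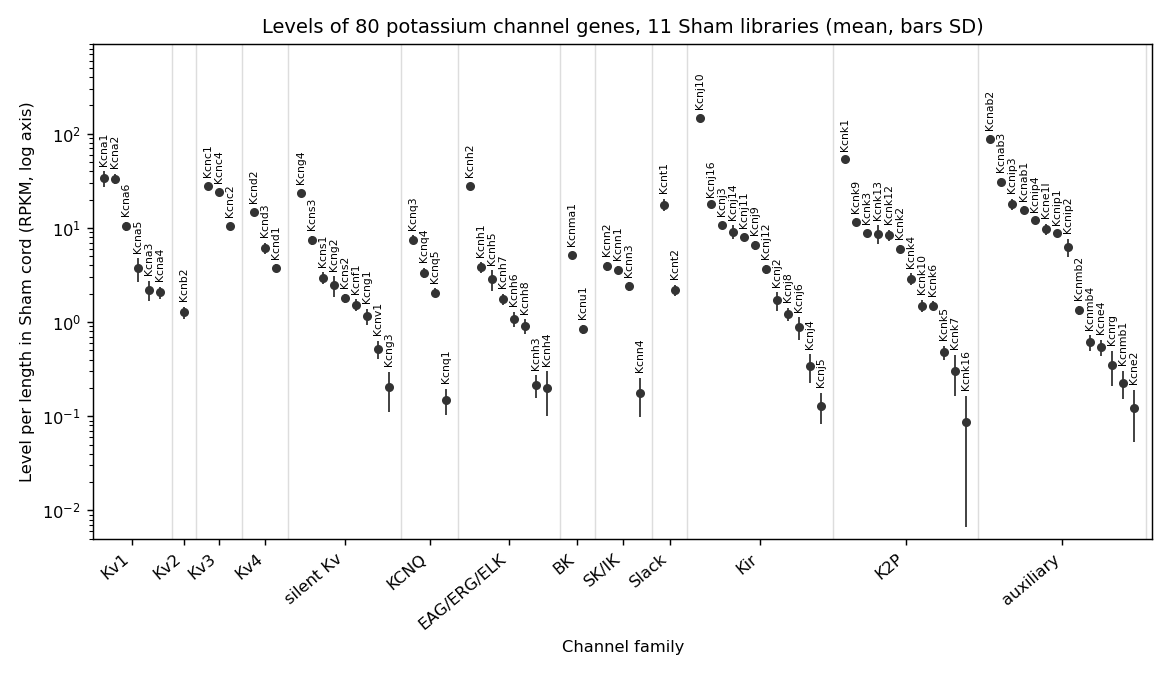
Level per length of 80 potassium channel genes in Sham cord at 4 h (RPKM on a log axis; points are means and bars SD over 11 libraries), arranged by channel family along the horizontal axis and by level within a family. Kcnj10 stands highest at 146 RPKM and Kcnk16 lowest at 0.0862 RPKM.

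At 4 h after clamping, potassium channel genes moved in both directions and by small amounts. Of the 80 genes tested in ACC against Sham cord, 12 rose and 15 fell by edgeR's quasi-likelihood F test at a Benjamini-Hochberg adjusted p under 0.05, while Kcne2, Kcnk7 and Kcnk16 had too few counts to be tested. That is 33.8% of the 80, beside 16.4% of all 17759 genes tested in that comparison. The share that rose was 15% beside 9.37% of all genes, and the share that fell was 18.8% beside 7.04%. These shares are descriptions, since the genes were chosen with earlier results of these data known, and all genes were not matched to them in level. The median log2 fold change was -0.06 over the 80 genes and -0.01 over all genes tested. Among the 27 called genes the median size of the change was 0.31 on the log2 scale, and 23 of them changed by less than 0.5. The ACC and Sham libraries of every called gene overlapped, as they did for most genes of the table, in which all ACC libraries lay above all Sham libraries for 1.08% of genes and below them for 0.158%. Without library 2 of the miR155KI Sham mice, the Sham library lowest in Kcna1 (90.4 CPM), 11 genes rose and 15 fell. Since these are whole pieces of cord, fewer cells of a type and less RNA per cell cannot be told apart.

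**Figure D2:**
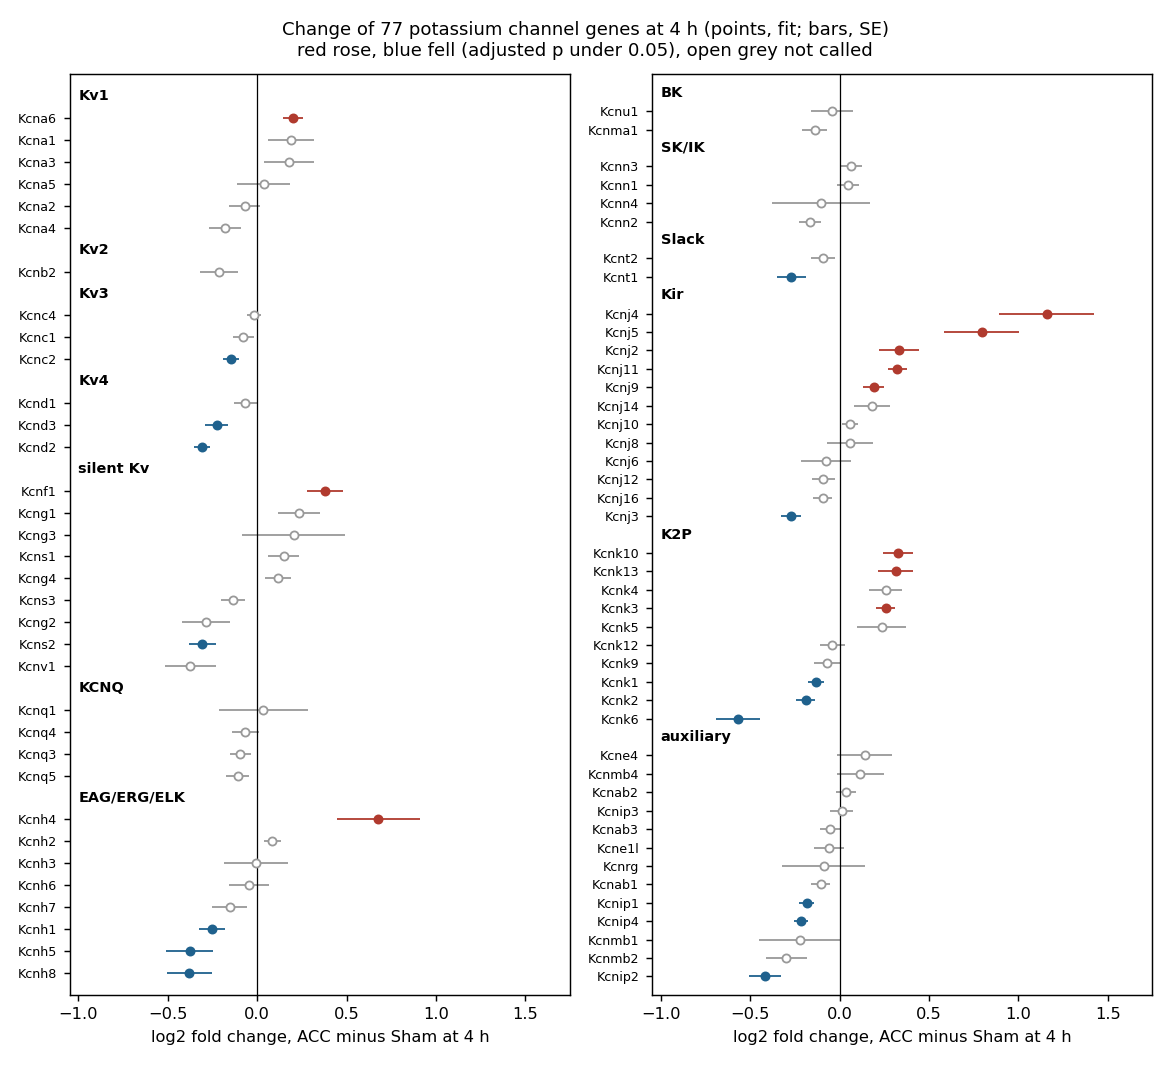
Change of 77 potassium channel genes between ACC and Sham cord at 4 h, grouped by family (log2 fold change on the horizontal axis; points are fitted values, bars their SE; 11 libraries a group). Filled red points rose, filled blue points fell, and open grey points did not pass the test; the Kv4 genes Kcnd2 and Kcnd3 and the KChIP genes Kcnip1, Kcnip2 and Kcnip4 lie on the negative side.

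Most of the Kv4 and KChIP genes fell. Beside 7.04% of all genes tested, 2 of 3 Kv4 pore genes and 3 of 4 KChIP genes fell. The calcium-binding KChIP products bind the Kv4 N terminus and set its surface level and inactivation. RefSeq promoter windows of 4 of the 5 genes that fell, from 250 bases before to 50 bases after the annotated start on GRCm38.p6, are shown because the genes fell together. Of the 2 Kcnip4 windows the one with a motif match is printed, and the 3 windows of Kcnip1 are not printed. The RefSeq starts differ from the deposited gene bounds for some of these genes. Both Kcnip4 windows lie inside the deposited gene (48389502 to 49524907, minus strand), away from its 5' end. The Kcnd2 and Kcnd3 windows end before the deposited gene starts, at 21215503 and 105452330. Windows were found for 60 of the 83 genes, 84 windows in all, with a median GC content of 59.7% against 52.7% over all 32851 windows of the table. They were searched on both strands for the cAMP response element (CRE, TGACGTCA), the AP-1 element TGANTCA, the EGR element GCGTGGGCG, a heat shock element core (HSE, GAANNTTC) and, by name, a core of the RE1 silencer. Letters in capitals mark a match.
Kcnd2, chr6:21215096-21215395, plus strand: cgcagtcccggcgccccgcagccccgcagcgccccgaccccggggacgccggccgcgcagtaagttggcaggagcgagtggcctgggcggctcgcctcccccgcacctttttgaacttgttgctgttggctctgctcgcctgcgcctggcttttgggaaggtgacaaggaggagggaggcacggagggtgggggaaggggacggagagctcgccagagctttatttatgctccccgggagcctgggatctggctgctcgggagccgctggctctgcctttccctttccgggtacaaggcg
Kcnd3, chr3:105451640-105451939, plus strand: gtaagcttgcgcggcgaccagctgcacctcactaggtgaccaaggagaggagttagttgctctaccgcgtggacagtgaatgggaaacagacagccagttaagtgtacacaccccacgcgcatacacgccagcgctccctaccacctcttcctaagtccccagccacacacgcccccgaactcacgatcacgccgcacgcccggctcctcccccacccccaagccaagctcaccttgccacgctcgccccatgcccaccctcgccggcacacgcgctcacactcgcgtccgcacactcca
Kcnip2, chr19:45816014-45816313, minus strand: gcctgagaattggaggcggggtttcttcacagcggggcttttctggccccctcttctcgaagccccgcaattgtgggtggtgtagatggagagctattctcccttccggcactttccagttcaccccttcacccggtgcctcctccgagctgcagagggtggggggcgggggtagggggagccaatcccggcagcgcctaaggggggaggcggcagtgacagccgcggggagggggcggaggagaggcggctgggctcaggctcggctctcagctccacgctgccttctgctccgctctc
Kcnip4, chr5:49285610-49285909, minus strand: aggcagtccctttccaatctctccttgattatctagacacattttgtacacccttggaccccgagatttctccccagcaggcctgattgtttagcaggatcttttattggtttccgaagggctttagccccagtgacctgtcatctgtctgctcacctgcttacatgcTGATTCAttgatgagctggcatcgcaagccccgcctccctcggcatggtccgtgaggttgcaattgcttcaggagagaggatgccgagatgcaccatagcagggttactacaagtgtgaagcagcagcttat
The windows of Kcnd2, Kcnd3 and Kcnip2 have a GC content of 68.7%, 64% and 67% and hold none of the 5 motifs. The Kcnip4 window shown has 51% GC and a match to the open AP-1 pattern, TGATTCA, whose first base lies at -82 from the start. The other Kcnip4 window (59.7% GC) and the Kcnip1 windows (45.3%, 66.7% and 54.3% GC) hold none of the 5 motifs either. Over the 84 windows AP-1 matched in 3 (3.57%, against 7.81% of all windows) and the HSE core in 5 (5.95%, against 7.86%). CRE, EGR and RE1 matched in none of them, against 1.79%, 0.612% and 0.0517% of all windows.

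Kcnd2 encodes Kv4.2, the main A-type subunit of many dendrites, and lies on the plus strand of chromosome 6 from 21215503 to 21729805 (GRCm38, gene bounds as deposited). Its level had a lowest value of 63.2, a median of 76.4 and a highest value of 84.2 CPM in the 11 Sham libraries. In the 11 ACC libraries these values were 54.2, 61.1 and 66.5 CPM. All ACC libraries were below the Sham median, and 2 Sham libraries, WT 3 and miR155KI 2, reached down into the ACC range. Kcnd2 fell by 0.31 on the log2 scale (SE 0.0450, edgeR adjusted p = 1.01e-05), the smallest adjusted p among the 80 genes. Kcnd3, which encodes the related pore subunit Kv4.3, ran from 45.3 through 58.4 to 78.5 CPM in Sham and from 42.4 through 49.1 to 57.8 CPM in ACC, and fell by 0.23 (SE 0.0641, adjusted p = 0.0137). Its Sham range was widened by miR128KO Sham library 4, at 78.5 CPM, and 10 of the 11 ACC libraries lay within that range. Kcnd1, the remaining Kv4 gene, had Sham values around a median of 20.5 CPM and ACC values around 18.6 CPM, with a log2 fold change of -0.07 (SE 0.0642, adjusted p = 0.535).

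Kcnip4 encodes a KChIP that slows Kv4 inactivation. Its Sham libraries ran from 38.8 through a median of 43.9 to 47.5 CPM and its ACC libraries from 35.2 through 37.9 to 40.3 CPM. Of the Sham libraries 1 lay within the ACC range and 4 ACC libraries lay within the Sham range, and the gene fell by 0.22 on the log2 scale (SE 0.0394, adjusted p = 0.000225). Kcnip2 ran from 15.5 through 21.6 to 34.0 CPM in Sham and from 14.2 through 16.3 to 18.8 CPM in ACC, and fell by 0.42 (SE 0.0916, adjusted p = 0.00186). All its ACC libraries were below the Sham median. Kcnip1 ran from 49.0 through 54.6 to 61.9 CPM in Sham and from 43.9 through 47.5 to 56.7 CPM in ACC, and fell by 0.18 (SE 0.0434, adjusted p = 0.00328). Of its ACC libraries 10 were below the Sham median, and 2 ACC libraries, at 53.9 and 56.7 CPM, lay within the Sham range. Kcnip1 overlaps the gene Kcnmb1 on the other strand, and since the strand setting of the counting is not given in the sources used here, reads of the pair may not have been told apart. Kcnmb1 itself had a Sham median of 0.943 CPM. The same limit holds for Kcnip4, Kcnh1 and Kcnab2, which overlap 5730480H06Rik, Hhat and Nphp4 on the other strand. It also holds for further potassium channel genes, among them Kcnd3, Kcna6, Kcnj3 and Kcnk3, which overlap genes on the other strand that are not protein-coding. Some bounds also overlap genes on the same strand, which no strand setting separates. These are 3 genes for Kcnd2, 24 for Kcnip4 and 1 for Kcnip1, the protein-coding 4930469K13Rik. Kcnip3, which is also known as the transcriptional repressor DREAM, had medians of 62.7 CPM in Sham and 62.6 CPM in ACC (log2 fold change 0.01, SE 0.0635, adjusted p = 0.933).

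As a group, the 3 Kv4 genes summed to 20.6 through 24.7 to 28.4 RPKM in Sham and to 18.3 through 20.4 to 22.1 RPKM in ACC. The 4 KChIP genes summed to 42.1 through 45 to 48.9 RPKM in Sham and 38 through 40.8 to 45.4 RPKM in ACC. These summed levels are descriptions, since the members were chosen with results known. Of the other Kv4 partners, the single-pass subunit gene Dpp10 fell by 0.18 (SE 0.0394, adjusted p = 0.00191), whereas the related Dpp6 had a log2 fold change of -0.10 (SE 0.0404, adjusted p = 0.0934).

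**Figure D3:**
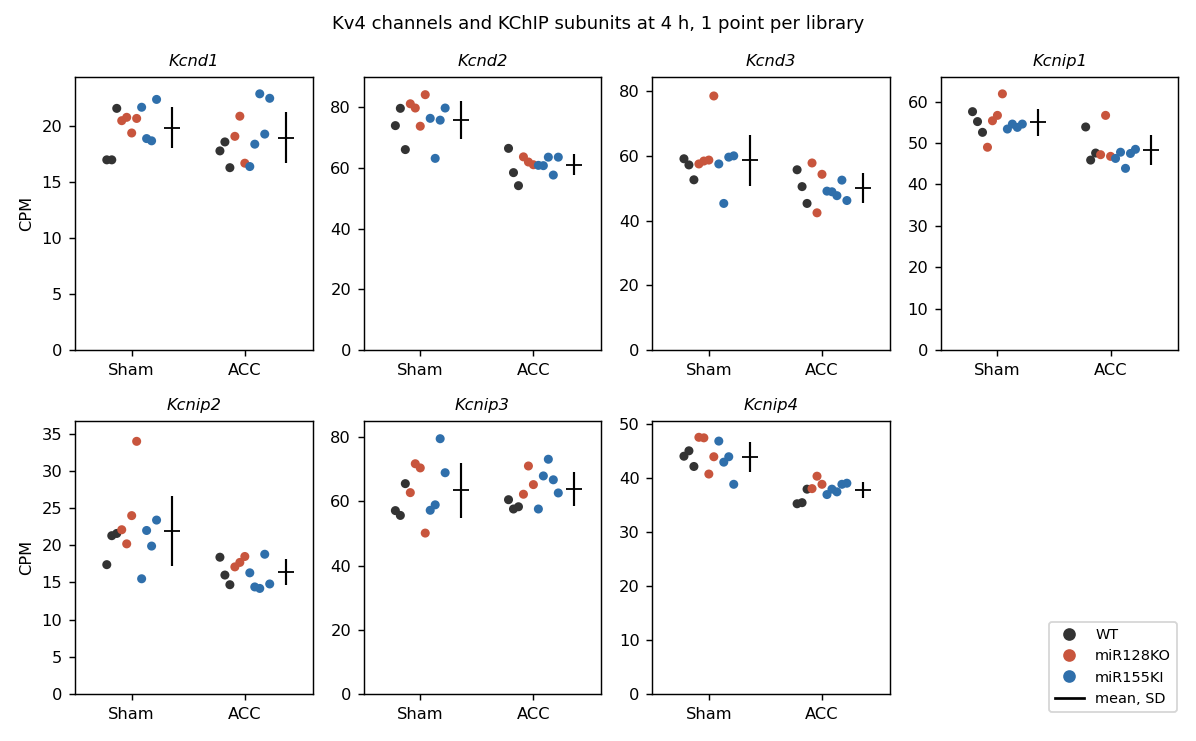
Levels of the 3 Kv4 and 4 KChIP genes in the 4 h libraries (CPM from 0 on the vertical axis; 1 point per mouse, coloured by genotype; the black mark is the mean with its SD, 11 mice a group). Kcnd2 falls from a Sham median of 76.4 to an ACC median of 61.1 CPM with 2 Sham libraries in the ACC range, while Kcnd1 and Kcnip3 overlap almost fully.

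Beside 9.37% of all genes tested, 1 of 6 Kv1 genes rose. This was Kcna6, which rose by 0.20 on the log2 scale (SE 0.0558, adjusted p = 0.0122), from a Sham median of 61.6 to an ACC median of 72.4 CPM, with 10 of 11 ACC libraries above the Sham median. The other 5 Kv1 genes did not pass the test. Among them Kcna1 varied widely, from 90.4 to 214 CPM in Sham and from 130 to 247 CPM in ACC (log2 fold change 0.19, SE 0.128, adjusted p = 0.364), and Kcna3, a Kv1 gene also found in microglia and lymphocytes, had a log2 fold change of 0.18 (SE 0.140, adjusted p = 0.430).

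Of 4 Kv3 genes, which shape brief action potentials in fast-firing neurons, Kcnc2 alone passed the test, beside 16.4% of all genes tested. It fell by 0.15 (SE 0.0450, adjusted p = 0.0239), from a Sham median of 74.6 to an ACC median of 68.3 CPM, and all ACC libraries were below the Sham median although 8 of them lay within the Sham range. Kcnc1 had a log2 fold change of -0.08 (SE 0.0589, adjusted p = 0.406). None of the 5 KCNQ genes, which encode the M-type channels that restrain repetitive firing, passed the test by edgeR. At an unadjusted p under 0.05, 1 of the 5 passed, beside 29.0% of all genes tested. Kcnq3 had a log2 fold change of -0.09 (SE 0.0584, adjusted p = 0.299).

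Silent Kv subunits form no channel alone and alter the gating of Kv2 channels when they join them. Of 9 such genes 1 rose and 1 fell, beside 9.37% and 7.04% of all genes tested. Kcnf1 encodes Kv5.1 and had Sham values of 5.55 through 7.26 to 8.78 CPM and ACC values of 6.35 through 9.56 to 12.8 CPM. It rose by 0.38 on the log2 scale (SE 0.0982, adjusted p = 0.00712), with 10 of 11 ACC libraries above the Sham median. Kcns2 encodes Kv9.2 and went the other way, from 7.94 through 10.1 to 11.4 CPM in Sham to 7.06 through 8.09 to 9.77 CPM in ACC. It fell by 0.31 (SE 0.0737, adjusted p = 0.00385), with all ACC libraries below the Sham median. Kcng4, the silent subunit with the highest level per length (23.5 RPKM, SD 1.96), had a log2 fold change of 0.12 (SE 0.0712, adjusted p = 0.298).

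In the EAG, ERG and ELK family 1 of 8 genes rose and 3 fell, beside 9.37% and 7.04% of all genes tested. Each call was near the threshold except that of Kcnh1. Kcnh1 and Kcnh5 encode the EAG pair of slowly opening channels. Kcnh1 fell by 0.26 (SE 0.0726, adjusted p = 0.0144), from a Sham median of 27.8 to an ACC median of 23.6 CPM, and Kcnh5 fell by 0.38 (SE 0.131, adjusted p = 0.0499), from 11.8 to 8.82 CPM. The ELK gene Kcnh8 fell by 0.38 (SE 0.126, adjusted p = 0.0370), from 4.03 to 3.18 CPM, and the ELK gene Kcnh4 rose by 0.68 (SE 0.232, adjusted p = 0.0438) on 7 to 40 counts a library. The last 3 calls were not kept in every fit with a library left out. Leaving out each of the 22 libraries in turn, Kcnh5 lost its call in 16 of 22 fits, Kcnh4 in 14 and Kcnh8 in 9. Kcnh1 kept its call in all 22. Kcnh2, which encodes the ERG channel known from the heart and has the highest level per length of the family (27.9 RPKM, SD 2.05), had a log2 fold change of 0.09 (SE 0.0476, adjusted p = 0.246).

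Among the channels gated by calcium or sodium 1 gene changed, 1 of the 2 Slack genes, beside 16.4% of all genes tested. Kcnt1 encodes Slack, the sodium-activated channel, and ran from 138 through 167 to 224 CPM in Sham and from 110 through 138 to 164 CPM in ACC. It fell by 0.27 (SE 0.0805, adjusted p = 0.0214), and all its ACC libraries were below the Sham median. Neither of the 2 genes in the BK group, nor any of the 4 SK and IK genes, nor any of the 3 BK beta subunits passed the test in the reported fit. Kcnma1, the BK pore gene, had a log2 fold change of -0.14 (SE 0.0686, adjusted p = 0.174), Kcnn2 of -0.17 (SE 0.0604, adjusted p = 0.0597) and Kcnn4, the IK channel of microglia and blood cells, of -0.10 (SE 0.274, adjusted p = 0.853) at a Sham median of 0.834 CPM. Kcnn2 passed the test in 4 of 32 alternative fits (lowest edgeR adjusted p = 0.0326). Of these, 3 were among the 22 leave-one-out fits, without miR128KO ACC library 5 or without miR155KI Sham library 2 or 3.

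More inward rectifier genes rose than fell, as over all genes tested (1664 rose and 1250 fell). Of 12 Kir genes 5 rose and 1 fell, beside 9.37% and 7.04% of all genes tested. The 4 G protein-gated (GIRK) genes, which mediate slow inhibition through GABA-B and other receptors, were split among themselves. Kcnj3 encodes GIRK1, an obligatory partner in most neuronal GIRK channels, and ran from 48.5 through 56.6 to 62.4 CPM in Sham and from 39.5 through 45.4 to 57.4 CPM in ACC. It fell by 0.27 on the log2 scale (SE 0.0556, adjusted p = 0.000835). Kcnj9 encodes GIRK3 and rose by 0.19 (SE 0.0585, adjusted p = 0.0229), from a Sham median of 28.1 to an ACC median of 31.6 CPM. Kcnj5, the GIRK4 gene of the heart atrium, rose by 0.79 (SE 0.210, adjusted p = 0.00849), but from a Sham median of only 0.574 CPM and on 7 to 41 counts a library. Kcnj6, the GIRK2 gene, had a log2 fold change of -0.08 (SE 0.142, adjusted p = 0.779). Summed per length, the 4 GIRK genes stood at a median of 18.1 RPKM in Sham and 17.3 RPKM in ACC.

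Among the ATP-sensitive (KATP) channels, which open when cellular ATP falls, Kcnj11 encodes the neuronal pore Kir6.2. It lies on chromosome 7 from 46093953 to 46100764, on the minus strand. Its Sham libraries ran from 26.0 through 29.5 to 33.7 CPM and its ACC libraries from 33.1 through 35.8 to 42.9 CPM. The groups overlapped by 1 ACC and 2 Sham libraries, and the gene rose by 0.32 (SE 0.0531, adjusted p = 5.58e-05), the smallest adjusted p among the genes that rose. Kcnj8, the vascular and glial pore Kir6.1, had medians of 3.27 CPM in Sham and 3.12 CPM in ACC (log2 fold change 0.06, SE 0.129, adjusted p = 0.821). The regulatory subunit genes of these channels, Abcc8 (log2 fold change -0.03, SE 0.1, adjusted p = 0.903) and Abcc9 (-0.15, SE 0.121, adjusted p = 0.446), were not called.

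Of 4 strong inward rectifiers of the Kir2 group, 2 rose, beside 9.37% of all genes tested. Kcnj4 encodes Kir2.3 and had Sham values of 0.254 through 0.827 to 1.01 CPM and ACC values of 0.663 through 1.45 to 3.27 CPM, on 7 to 64 counts a library. It rose by 1.16 on the log2 scale (SE 0.266, adjusted p = 0.00263), the largest change among the 80 genes. Kcnj2 encodes Kir2.1 and rose by 0.33 (SE 0.111, adjusted p = 0.0386), a call that was lost in 14 of the 22 leave-one-out fits. The glial pair Kcnj10 and Kcnj16, whose products join in astrocytes, did not pass the test. Kcnj10 ran from 674 to 884 CPM in Sham and from 735 to 876 CPM in ACC (log2 fold change 0.06, SE 0.0434, adjusted p = 0.399), and Kcnj16 had a log2 fold change of -0.10 (SE 0.0510, adjusted p = 0.223).

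**Figure D4:**
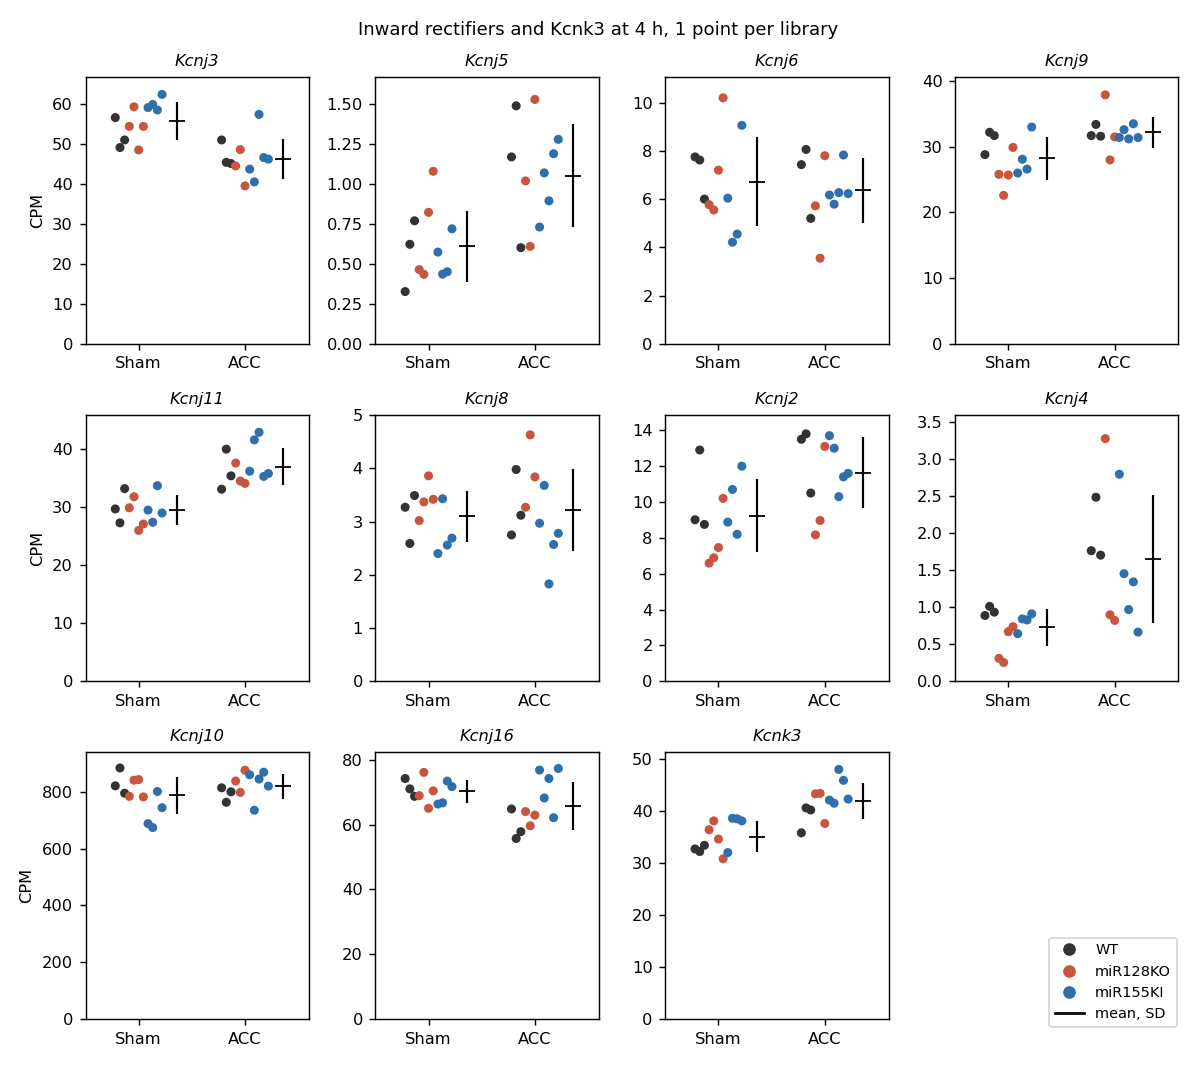
Levels of 10 inward rectifier genes and of the K2P gene Kcnk3 in the 4 h libraries (CPM from 0 on the vertical axis; 1 point per mouse, coloured by genotype; the black mark is the mean with its SD, 11 mice a group). Kcnj11 moves from a Sham median of 29.5 to an ACC median of 35.8 CPM and Kcnj3 from 56.6 to 45.4 CPM, while Kcnj10 and Kcnj8 overlap.

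Leak channel genes went both ways. Of the 10 K2P genes tested, 3 rose and 3 fell, beside 9.37% and 7.04% of all genes tested. Kcnk3 encodes the acid-sensitive leak channel TASK1 of motor neurons and other cells and ran from 30.8 through 34.6 to 38.6 CPM in Sham and from 35.8 through 42.1 to 48.0 CPM in ACC. It rose by 0.26 on the log2 scale (SE 0.0518, adjusted p = 0.000692), with all ACC libraries above the Sham median. Kcnk10, a mechanosensitive TREK channel, rose by 0.33 (SE 0.0837, adjusted p = 0.00657), from a median of 12.9 to 16.2 CPM. Kcnk13, the THIK1 channel that sets the resting potential of microglia, rose by 0.32 (SE 0.0980, adjusted p = 0.0275), from a median of 23.9 to 32.3 CPM. All 11 ACC libraries of Kcnk13 were above the Sham median, but 10 of them lay within the Sham range. Beside it, 3 of the 6 microglial markers fell, against 7.04% of all genes tested, and the median log2 fold change of the 6 was -0.29. Among those that fell, P2ry12 fell by 0.78 (SE 0.101, adjusted p = 2.87e-06) and Tmem119 by 0.79 (SE 0.144, adjusted p = 0.000458). The part of these markers in the result was not tested.

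Kcnk6 encodes TWIK2, a channel reported mainly in vessels and macrophages, and ran from 5.25 through 6.15 to 7.50 CPM in Sham and from 2.60 through 3.77 to 6.64 CPM in ACC. It fell by 0.57 (SE 0.123, adjusted p = 0.00138), the largest fall among the 80 genes, and 9 of the 11 ACC libraries lay below the whole Sham range. Kcnk2, another TREK channel, fell by 0.19 (SE 0.0519, adjusted p = 0.0111), so that the TREK genes Kcnk2 and Kcnk10 differed in direction. Kcnk1, the TWIK1 gene and the K2P gene with the highest level per length, fell by 0.13 (SE 0.0452, adjusted p = 0.0435), and lost its call in 12 of 22 leave-one-out fits.

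Genes that work with potassium channels were followed beside them. The 29 partner genes encode other channel subunits, scaffolds and the related HCN channels. Beside 9.37% and 7.04% of all genes tested, none of them rose and 4 fell. Besides Dpp10 these were Amigo1, the Kv2 partner (-0.17, SE 0.0474, adjusted p = 0.0145 on the log2 scale), the scaffold Dlg2 (-0.20, SE 0.0598, adjusted p = 0.0240) and the secreted protein Lgi1, which is found with Kv1 channels, (-0.14, SE 0.0457, adjusted p = 0.0399). Hcn4, a pacemaker channel gene, had a log2 fold change of 0.16 (SE 0.0633, adjusted p = 0.0784), and Adam22, the Lgi1 receptor, of -0.13 (SE 0.0518, adjusted p = 0.0925). Of 14 genes for sodium pumps and potassium cotransporters, Slc12a4, the widely expressed potassium-chloride cotransporter KCC1, rose by 0.16 (SE 0.0429, adjusted p = 0.0104) and the other 13 were not called.

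Cell type markers moved beside these changes as follows, and their part in them was not tested. Over all genes tested 9.37% rose and 7.04% fell. Of 10 neuronal markers 2 fell, Syt1 (-0.27, SE 0.0579, adjusted p = 0.00135) and Elavl4 (-0.14, SE 0.0479, adjusted p = 0.0455), and their summed level ran from 7280 through 8210 to 8750 CPM in Sham and from 7430 through 8290 to 9400 CPM in ACC. None of the 6 motor neuron markers and none of the 6 oligodendrocyte markers was called. Of 8 astrocyte markers Gja1 and Gjb6 fell and Sox9 rose, both oligodendrocyte precursor markers fell, and 3 of 6 microglial markers fell, with summed microglial levels of 232 to 300 CPM in Sham and 187 to 255 CPM in ACC. None of the 4 endothelial and none of the 6 pericyte and smooth muscle markers was called. Markers of peripheral nerve and ganglion were uneven between mice of both groups, from 3.40 to 235 CPM summed in Sham and from 4.06 to 153 CPM in ACC, while the ganglion channel gene Scn10a had a Sham median of 0.00 CPM.

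At 1 h after clamping, thoracolumbar cord had lower levels of 2 potassium channel genes than cervical cord and higher levels of none, by edgeR or DESeq2. The 2 are 2.53% of the 79 genes tested by edgeR, beside 0.438% of all 17810 genes, of which 0.230% were lower and 0.208% higher, and 17 of the 79 had an unadjusted p under 0.05, beside 8.25% of all genes. Kcnj14 encodes Kir2.4, an inward rectifier known from cranial and other motor nuclei. It stood at 36.5, 38.2 and 42.3 CPM in the cervical cord of mice 1, 2 and 3, and at 23.3, 22.5 and 30.0 CPM in their thoracolumbar cord. All 3 thoracolumbar values were below all cervical ones, and the gene was lower by -0.63 on the log2 scale (SE 0.107, adjusted p = 0.0107). Kcna1, the Kv1.1 channel of axons, stood at 159, 173 and 175 CPM in cervical and 143, 111 and 121 CPM in thoracolumbar cord of mice 1, 2 and 3. Again the regions did not overlap (log2 fold change -0.43, SE 0.0844, adjusted p = 0.0286), beside 6.64% of all tested genes for which the thoracolumbar values all lay below the cervical ones.

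Kcna2, which encodes the axonal partner Kv1.2, stood at 417, 493 and 483 CPM in cervical and 466, 360 and 432 CPM in thoracolumbar cord of the same mice, so the regions overlapped (log2 fold change -0.15, SE 0.0914, adjusted p = 0.750).

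Both 1 h calls were lost in some of the fits with a single library left out. Without thoracolumbar library 2, or without cervical library 3, neither gene was called, with adjusted p values of 0.0753 and 0.0762 for Kcnj14 and 0.122 and 0.171 for Kcna1. Kcnj14 also lost its call without thoracolumbar library 1 (adjusted p = 0.0578), and Kcna1 without cervical library 2 (0.160) or thoracolumbar library 3 (0.0801). Clamping and the level of the cord cannot be told apart in this comparison, since every thoracolumbar library came from the clamped part. Motor neuron markers were lower beside these 2 genes, 4 of 6 by the test, against 0.230% of all genes tested. Their summed levels were 241 to 256 CPM in thoracolumbar and 388 to 429 CPM in cervical cord. Slc5a7, the choline transporter, had a log2 fold change of -0.89 (SE 0.0705, adjusted p = 3.14e-06) and Chat of -0.71 (SE 0.0916, adjusted p = 0.000653), and their part in the result was not tested.

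The Kv4 and KChIP genes that fell at 4 h were not called at 1 h. Kcnd2 stood at 64.2, 61.1 and 57.7 CPM in cervical and 68.0, 60.9 and 73.4 CPM in thoracolumbar cord of mice 1, 2 and 3 (log2 fold change 0.15, SE 0.0806, adjusted p = 0.690). The 1 h log2 fold changes of Kcnd3, 0.27 (SE 0.114, adjusted p = 0.535), and of Kcnip2, 0.37 (SE 0.115, adjusted p = 0.290), were positive. Kcnf1 had a log2 fold change of 0.46 (SE 0.167, adjusted p = 0.430) with all thoracolumbar above all cervical libraries, as in 7.08% of all genes, and Kcnk3 one of -0.23 (SE 0.0786, adjusted p = 0.395). The 1 h and 4 h contrasts have different controls, cervical cord of the same mice and thoracolumbar cord of Sham mice, and the difference between them was not tested.

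**Figure D5:**
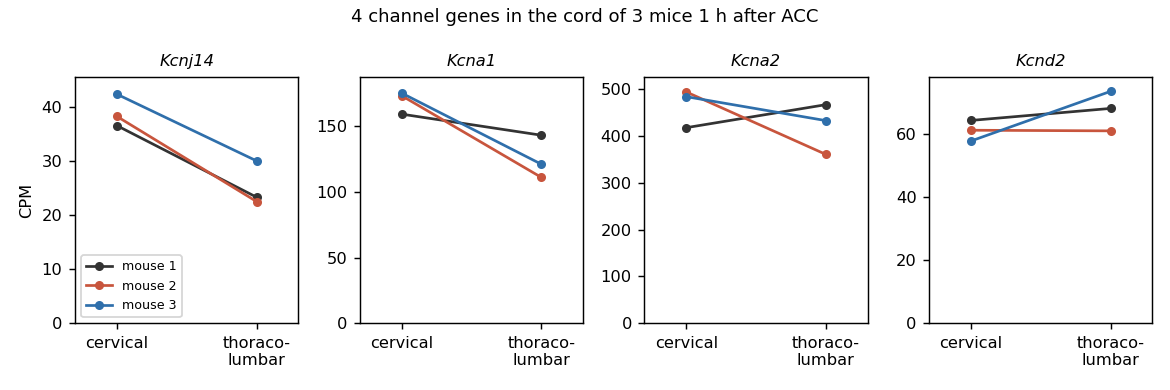
Levels of Kcnj14, Kcna1, Kcna2 and Kcnd2 in cervical and thoracolumbar cord of 3 mice 1 h after ACC (CPM from 0 on the vertical axis; each line joins the 2 regions of 1 mouse). Kcnj14 and Kcna1 are lower in thoracolumbar cord of all 3 mice, while the lines of Kcna2 and Kcnd2 go both ways.

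The miR128KO ACC library 1 that was left out can be set beside the 27 called genes. Its level was nearer to the Sham mean than to the ACC mean for 18 of them and nearer to the ACC mean for 9. For 16 of the 27 it lay on the ACC side of the Sham mean. The 27 genes were called without this library. Its level was 69.2 CPM for Kcnd2, 43.4 CPM for Kcnip4, 32.2 CPM for Kcnj11 and 33.2 CPM for Kcnk3, all nearer to the Sham mean. With it in the fit, 9 potassium channel genes rose and 12 fell.

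Split by genotype, few of the 4 h changes passed the test. Within WT none of 82 tested genes was called by edgeR (18 at an unadjusted p under 0.05, and 2 by DESeq2), beside 1.73% of all 19581 genes past the adjusted threshold by edgeR (1.44% higher, 0.291% lower) and 12.7% at an unadjusted p under 0.05. Within miR128KO 2 were called, 2.44% beside 2.73% of all genes (2.07% higher, 0.659% lower), with Kcnd2 lower by -0.35 (SE 0.0814, adjusted p = 0.0167) and Kcnj4 higher by 1.76 (SE 0.475, adjusted p = 0.0433). The Kcnj4 values of the 3 miR128KO ACC mice were 3.27, 0.897 and 0.821 CPM, and 0.310, 0.254, 0.669 and 0.737 CPM in Sham. Within miR155KI 4 were called, 4.88% beside 4.62% of all genes (3.29% higher, 1.32% lower). These were Kcnj11 (0.36, SE 0.0838, adjusted p = 0.0102), Kcnj3 (-0.35, SE 0.0827, adjusted p = 0.0118), Kcnd2 (-0.26, SE 0.0707, adjusted p = 0.0291) and Kcnk3 (0.26, SE 0.0747, adjusted p = 0.0431). Of these calls, that of Kcnj4 was lost in 12 and that of Kcnk3 in 15 of 22 leave-one-out fits, that of Kcnd2 in 2 within miR128KO and 5 within miR155KI, and those of Kcnj3 and Kcnj11 in none. The log2 fold change of Kcnd2 in WT was -0.30 (SE 0.0874, adjusted p = 0.0868), so its 3 estimates lie between -0.35 and -0.26.

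No gene's response to ACC was called different among the genotypes by edgeR's joint test or by DESeq2, with 3 of 82 at an unadjusted p under 0.05 (Kcnj16, Kcna3 and Kcnj10) beside 3.16% of all genes and 0.00% of all genes past the adjusted threshold. The smallest of these p values belonged to Kcnj16 (unadjusted p = 0.0173), with log2 fold changes of -0.27 in WT, -0.16 in miR128KO and 0.05 in miR155KI. Among Sham mice, no potassium channel gene was called between miR128KO and WT or between miR155KI and WT by either tool, and 0.00% of all genes were called in either contrast. At an unadjusted p under 0.05, 6 of 82 genes passed in miR128KO, beside 6.37% of all genes, and 6 in miR155KI, beside 4.68%. Kcnq5 was the first of the former (0.30, SE 0.0975, unadjusted p = 0.00450, adjusted p = 0.604) and Kcnj10 of the latter (-0.21, SE 0.0707, unadjusted p = 0.00763, adjusted p = 0.999).

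The study also compared ACC mice with high and low levels of the chemokine genes Ccl2, Ccl3 and Ccl4, groups it made from measured values. In the authors' deposited table of that comparison no potassium channel gene was called at an adjusted p under 0.05, of 82 with a value, beside 0.262% of all genes higher and 0.0198% lower in the high group. The same deposited table gave 4 of the genes an unadjusted p under 0.05, beside 2.60% of all genes with a p. In the authors' deposited table Kcnn4 had the smallest of these (log2 fold change 1.55 high minus low, SE 0.555, p = 0.00533, adjusted p = 0.536), ahead of Kcnk1 (-0.23), Kcnk6 (-0.67) and Kcnj10 (-0.16).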

How the data were processed

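RNA-seq libraries of mouse spinal cord were compared from the count tables that the authors deposited, in which each value is a whole-number count of reads per gene, not normalized. Per the submitters' processing notes, reads were handled with fastp, HISAT2 2.0.5 and featureCounts 1.5.0-p3 on GRCm38 (mm10). Whether the counting used strand, and which annotation release it used, is not given in the sources used here. Gene bounds and lengths are those the authors deposited. A further table of the authors holds the log2 fold changes, their SE and the p-values of mice with high against low chemokine levels, and its sign was turned to high minus low.

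Counts were fitted per time point in R 4.3.3 with edgeR 4.0.16 (TMM, filterByExpr with a minimum count of 10, robust quasi-likelihood F test) over all genes, with Benjamini-Hochberg adjustment over every gene tested and a threshold of 0.05. Values within genotypes came from a model with 6 groups, 1 for each genotype under ACC or Sham. The SE is the size of the log2 fold change divided by the square root of F. DESeq2 1.42.0, RLE scaling, no filter, a genotype covariate and each library left out in turn were the alternatives. Steps were tested on simulated data. The potassium channel genes and all gene lists were chosen with earlier results of these data known. Named genes were the label genes, all called ones, the highest per family and a fixed set of well known members, and a few of these are not reported here. The labels do not say more of the replicates than that they are different mice.

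At 1 h the regions pair by mouse, per the labels, although the correlation of paired deviations ran from -0.0450 to 0.0592 over 3 pairs. At 4 h the shared numbers do not pair the mice. Total counts of 15596512 to 33056693 per library leave genes under 1 CPM with few counts, and that limits their precision.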

Additional observations from a re-analysis of the deposited data

Results flagged for a closer look

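The levels of the 41 named genes were examined in each of the 3 groups of 4 or 5 libraries, miR128KO Sham, miR155KI ACC and miR155KI Sham, so that the same libraries recur. Of these 123 cases, 7 held a library far from the others of its group, and chance alone flags about 1 in 20. Kcnd3 stood at 78.5 CPM in miR128KO Sham library 4, with the nearest library at 58.7 CPM. Kcnma1 stood at 81.2 CPM in miR128KO Sham library 2, with the nearest at 91.8 CPM. Kcnab2 stood at 617 CPM in miR155KI ACC library 3, with the nearest at 528 CPM, and Kcnh4 at 1.65 CPM in miR155KI ACC library 2, with the nearest at 1.31 CPM. Library 2 of the miR155KI Sham mice was low for Kcna3, at 2.12 CPM with the nearest at 4.59 CPM, and for Kcnh1, at 20.3 CPM with the nearest at 27 CPM. Kcnk3 stood at 32.0 CPM in miR155KI Sham library 1, with the nearest at 38.1 CPM.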

How the results depend on the processing

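At 4 h the number of potassium channel genes that rose and fell was 12 and 15 in the reported fit, 12 and 13 with RLE scaling, 10 and 11 without a filter, 13 and 14 with DESeq2, 11 and 13 with a genotype covariate, and 9 and 12 with miR128KO ACC library 1 included. Leaving out each library in turn gave 10 to 13 that rose and 12 to 16 that fell, 0 to 2 lower at 1 h, and 0 to 1 called within WT, 1 to 4 within miR128KO and 2 to 5 within miR155KI. With the mouse number within genotype as a replicate block, which the labels do not say pairs the 4 h mice, 7 rose and 8 fell in the 18 libraries that could be paired, and the same libraries without the block, an alternative added after seeing the data, gave 8 and 10. The mouse block at 1 h kept both calls. Within genotypes, DESeq2 called 2 genes in WT and 6 in miR128KO, and 1 was called in miR128KO with library 1 included. The cause of these differences was not tested. Reversals were looked for among the 41 named genes only, and those found belonged to genes that were not called. With library 1 included Kcnn4 was at 0.021. Within WT, Kcnab2 was at -0.01, Kcng4 at -0.01, Kcnip3 at -0.022, Kcnj10 at -0.079 and Kcnn4 at 0.29. Within miR128KO, Kcna1 was at -0.15 and Kcna3 at -0.31, and within miR155KI, Kcnip3 was at -0.008, Kcnj16 at 0.047, Kcnj8 at -0.004 and Kcnn4 at 0.17. Without single libraries, the 4 h value of Kcnip3 ranged from -0.017 to 0.049, of Kcnj8 from -0.009 to 0.122 and of Kcnn4 from -0.222 to 0.038, and the 1 h value of Kcns2 from -0.072 to 0.226.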
